A study of Homo sapiens with 25 samples.

Results

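Small nucleolar RNA (snoRNA) host genes are taken here as every gene in the deposited expression table whose name is SNHG followed by a number, with GAS5 added. The rule found 29 genes, 28 SNHG genes and GAS5, of 59427 names in the table. It used names only and no measured value. All genes were read in 25 RNA sequencing libraries from 2 established human lines of non-small cell lung cancer, A549 (adenocarcinoma) and NCI-H460 (large cell carcinoma). Cells of each line had been transfected with an antisense oligonucleotide (ASO, a short synthetic strand that binds a chosen RNA) at 25 nM and were collected 24 h later. Each line has 5 groups: a neutral control ASO from Qiagen, ASO3 and ASO5 against a long noncoding RNA called candidate 42 or CHiLL1, and ASO1 and ASO3 against another called candidate 240 or CHiLL2. Neither label was matched to a gene of the table, so the level of the targets was not analysed here. A549 has 3 libraries per group, numbered 3, 4 and 5, and NCI-H460 has 2, numbered 1 and 2. Values below are given in the order of those numbers. Every group, controls included, carried a transfected ASO, and untransfected cells were not analysed here. Nothing in the labels says whether the libraries of a group came from separate cultures, so the p-values measure only the spread between these libraries.

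A snoRNA host gene is transcribed as a long precursor whose introns hold snoRNAs, the small guides that direct 2′-O-methylation (box C/D class) or pseudouridylation (box H/ACA class) of ribosomal RNA and other stable RNAs. Splicing frees the introns, from which the snoRNAs are cut, and leaves an exonic RNA. In many noncoding hosts that exonic RNA carries only short reading frames and is cleared by nonsense-mediated decay (NMD), the pathway that removes messages whose translation stops early. GAS5, SNHG1 and several others are known to start with a pyrimidine tract like that of ribosomal protein messages. GAS5 RNA is known to rise in growth-arrested cells.

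The deposited values are TPM, an expression level per unit of transcript length, and the sums of the libraries ran from 924350 to 1179224. The number of reads behind them is unknown. On the first principal component of its line, A549 candidate 240 ASO3 replicate 3 stood apart. In NCI-H460 both candidate 42 ASO3 libraries did, replicate 1 at 72.2 and replicate 2 at 38.7, while the 8 other libraries ranged from -28.5 to 3.06. A549 candidate 240 ASO3 replicate 3 and NCI-H460 candidate 42 ASO3 replicate 1 also had the largest sums of their lines, 1179224 and 1173905. The epithelial markers EPCAM, KRT8, KRT18, KRT19 and CDH1 all averaged at least 1 TPM in A549. In NCI-H460 the 3 keratins did, while EPCAM and CDH1 did not. Of 5 leukocyte markers only CD14 reached 1 TPM in either line, and none of 4 endothelial markers did. Of 5 fibroblast markers COL1A1 did in A549, and COL1A1 and LUM did in NCI-H460.

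Most of the snoRNAs that the hosts carry are listed at 0 in the table. RefSeq places 146 snoRNAs or small Cajal body RNAs (scaRNAs) inside 28 of the 29 genes, 83 of them in SNHG14 and 63 in the others, and none in SNHG27. Of the 146, 132 are named in the table and 117 were listed at 0 in all 25 libraries. Only 8 averaged at least 1 TPM in either line and 4 at least 10 TPM. SNORD104, inside SNHG25, averaged 54.1 TPM over the A549 libraries and 97.3 over the NCI-H460 libraries. SNORA73B, the U17 snoRNA of SNHG3 that takes part in cutting of the ribosomal RNA precursor, averaged 34.7 and 82.1. SNORD99 of SNHG12 averaged 3.96 and 13.6, and SNORA71B of SNHG17 averaged 4.58 and 10.9. The genes that hold these RNAs overlap them in the table, and how the authors' counting divided the reads was not tested. The sequences of 3 detected snoRNAs follow, with their positions in GRCh38 and their GENCODE v29 sequences, written as DNA, to show the guide units that the host introns deliver. In the box C/D snoRNAs the capitals mark the core of box C (GATGA) and box D (CTGA), and in SNORA73B they mark the ACA box near the 3′ end.
SNORD104 in SNHG25, chr17:64146083-64146152, plus strand: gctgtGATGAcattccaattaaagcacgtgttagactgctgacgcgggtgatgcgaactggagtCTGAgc
SNORD99 in SNHG12, chr1:28578749-28578822, minus strand: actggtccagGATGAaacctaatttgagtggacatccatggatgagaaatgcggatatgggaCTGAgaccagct
SNORA73B in SNHG3, chr1:28508559-28508762, plus strand: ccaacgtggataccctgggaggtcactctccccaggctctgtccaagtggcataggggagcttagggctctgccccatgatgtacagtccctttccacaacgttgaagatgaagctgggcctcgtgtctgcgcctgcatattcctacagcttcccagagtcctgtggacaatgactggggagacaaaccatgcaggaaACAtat

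The start sites of the hosts are shown next because the group is known for pyrimidine starts and because several of these genes moved together in NCI-H460. RefSeq's promoter table (GRCh38.p14) holds 25 of the 29 genes. Each window runs from 30 bases before the annotated start to 30 bases from it onward, and the capitals mark the first 10 transcribed bases. SNHG5, SNHG12, SNHG19 and SNHG32 open with C and a run of C and T, as does SNHG4. SNHG7, SNHG11, SNHG12, SNHG17 and SNHG30 are 5 of the genes that rose in NCI-H460 with candidate 42 ASO3, and SNHG4 fell there. SNHG29 and GAS5 are the 2 most abundant hosts of NCI-H460.
SNHG7, chr9:136728155-136728214, minus strand: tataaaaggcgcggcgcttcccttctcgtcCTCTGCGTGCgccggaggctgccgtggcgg
SNHG11, chr20:38446624-38446683, plus strand: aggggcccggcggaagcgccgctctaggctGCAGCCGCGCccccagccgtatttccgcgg
SNHG12, chr1:28581844-28581903, minus strand: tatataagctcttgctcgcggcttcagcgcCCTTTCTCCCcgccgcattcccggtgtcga
SNHG17, chr20:38435299-38435358, minus strand: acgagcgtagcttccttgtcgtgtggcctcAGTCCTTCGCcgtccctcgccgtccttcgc
SNHG30, chr17:35568084-35568143, plus strand: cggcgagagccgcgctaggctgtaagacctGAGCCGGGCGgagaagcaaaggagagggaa
SNHG4, chr5:139274071-139274130, plus strand: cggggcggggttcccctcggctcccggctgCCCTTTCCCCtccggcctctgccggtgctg
SNHG5, chr6:85678704-85678763, minus strand: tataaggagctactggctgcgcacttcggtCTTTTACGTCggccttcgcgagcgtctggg
SNHG19, chr16:2155329-2155388, minus strand: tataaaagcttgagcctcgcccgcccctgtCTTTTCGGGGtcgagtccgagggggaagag
SNHG32, chr6:31834886-31834945, plus strand: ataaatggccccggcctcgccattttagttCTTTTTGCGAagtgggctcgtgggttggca
SNHG29, chr17:16438957-16439016, plus strand: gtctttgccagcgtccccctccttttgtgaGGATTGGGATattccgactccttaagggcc
GAS5, chr1:173869016-173869075, minus strand: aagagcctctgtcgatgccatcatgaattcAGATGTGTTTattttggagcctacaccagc
The first transcribed base was C in 10 of the 25 host windows (40%) and in 14.7% of all 35116 promoters. A first C followed by at least 4 bases that are all C or T was present in 6 (24.0%), which were SNHG4, SNHG5, SNHG12, SNHG18, SNHG19 and SNHG32, and in 4.07% of all promoters. The letters TATAA, searched from 40 to 21 bases before the start, were present in 5 (20.0%), SNHG5, SNHG7, SNHG8, SNHG12 and SNHG19, and in 3.77% of all promoters. The reverse complement TTATA was present in 0 of the 25 and in 1.59% of all promoters. SNHG5, SNHG12 and SNHG19 held both features. Of the genes that rose with candidate 42 ASO3, SNHG7 and SNHG12 held TATAA, and SNHG11, SNHG17 and SNHG30 held neither feature in these windows. GAS5 opens with A in this entry, whose start lies outside the span that the authors' tables give. SNHG1 opens with C in its entry, with a run of only 3 bases of C or T, so it was not counted. An annotated start can differ from the one used in these lines, and the matches are a description of the letters only.

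Of the 29 genes, 24 averaged at least 1 TPM in each line and could be tested, and the same 24 passed in both. The 5 others were near 0. SNHG18 was listed at 0 in 11 of 15 A549 libraries and in 2 of 10 NCI-H460 libraries, with a highest value of 1.55 TPM in NCI-H460 candidate 42 ASO3 replicate 1. SNHG27 was at 0 in 11 and 6 libraries and never above 0.187 TPM. SNHG22 reached 2.43 TPM in 1 NCI-H460 library, and SNHG31 stayed at or below 0.441. SNHG28 measured 0.231, 0.373 and 0.398 TPM in the A549 controls and 1.74, 0.899 and 0.940 with candidate 42 ASO3, so that every ASO3 library was above every control. In NCI-H460 it measured 0.120 and 0.238 TPM in the controls and 0.548 and 0.689 with that ASO. SNHG28 lies under the threshold of 1 TPM on average, overlaps the protein-coding gene VSIG8 on the same strand, and by limma was called higher in A549 when the filter on low values was dropped (log2 fold change 0.99, adjusted p = 0.042). The authors' deposited tables of candidate 42 ASO3 give SNHG28 as higher in both lines, at 1.84 (q = 0.0248) in A549 and 1.86 (q = 0.0313) in NCI-H460.

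Members spanned more than 100-fold in level, and the order differed between the lines. Under the control ASO, SNHG5 led in A549 at 693 ± 51.1 TPM (SD, n = 3) and SNHG29 followed at 597 ± 39.6. In NCI-H460 SNHG29 led at 1184 ± 28.0 TPM (SD, n = 2), followed by GAS5 at 1027 ± 8.79 and SNHG5 at 759.7 ± 22.3. The lowest tested members were SNHG26 in A549 at 3.20 ± 0.591 TPM and SNHG20 in NCI-H460 at 6.57 ± 0.481. Over all libraries of a line, 11 members averaged at least 50 TPM in A549 and 13 in NCI-H460. Together the 29 members made up 0.242% to 0.328% of the summed TPM in the A549 libraries and 0.466% to 0.576% in the NCI-H460 libraries, with no overlap between the lines. Under the control ASO the share was 0.270 ± 0.029% (SD, n = 3) in A549 and 0.509 ± 0.010% (SD, n = 2) in NCI-H460.

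**Figure D1:**
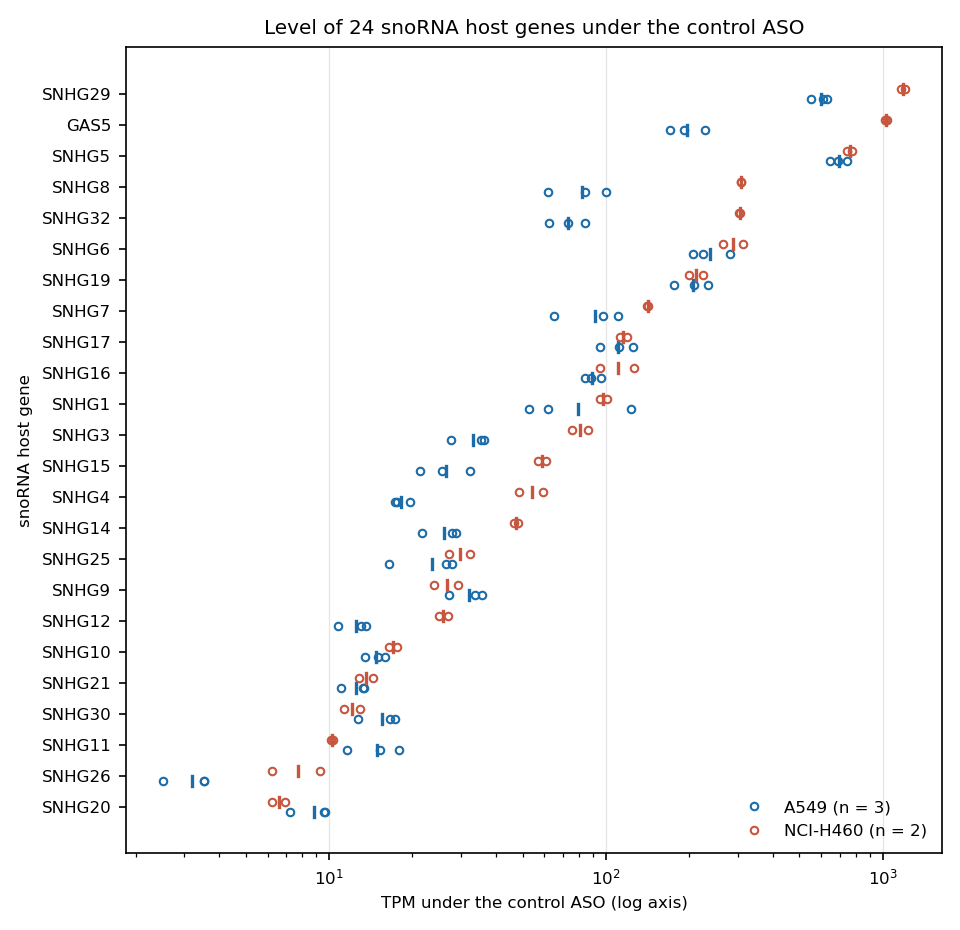
Level of the 24 tested host genes under the control ASO, in TPM on a log axis, with 1 circle per library and a vertical bar at the group mean (A549, n = 3; NCI-H460, n = 2). GAS5, SNHG32 and SNHG8 lie far apart between the lines, while SNHG5, SNHG19 and SNHG17 overlap.

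11 of the 24 tested members were lower in A549 than in NCI-H460 under the control ASO and 0 were higher, where 18.4% of the 14769 genes tested were lower and 36.4% were higher (limma on log2(TPM + 0.5), Benjamini-Hochberg over all genes, adjusted p under 0.05; the same threshold holds for every call below). The median difference, A549 minus NCI-H460, was -0.38 on the log2 scale over the members and 0.21 over all genes. GAS5 differed most. In A549, GAS5 measured 191, 171 and 229 TPM in the controls and in NCI-H460 1033 and 1021, a difference of -2.39 (SE 0.18, adjusted p = 7.31e-10). Every NCI-H460 control library was above every A549 control library for 12 members, the 11 called and SNHG10, where 24.9% of genes had that order, and the reverse order held for SNHG11 and SNHG20, where 43.8% had it. SNHG32, the host of SNORD48 and SNORD52 in the major histocompatibility region, measured 73.0, 62.3 and 83.9 TPM in A549 and 302 and 306 in NCI-H460, a difference of -2.06 (adjusted p = 1.43e-10). SNHG8, the host of SNORA24, measured 84.3, 61.7 and 99.8 TPM in A549 and 309 and 308 in NCI-H460, a difference of -1.93 (adjusted p = 6.13e-07). These 3 hosts stood at 19.2%, 24.1% and 26.6% of their NCI-H460 level in A549. In bulk RNA, fewer cells that express a gene and less of its RNA per cell cannot be told apart.

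The other 8 lower members differed less. SNHG4, the host of SNORA74A, differed by -1.54 (adjusted p = 2.44e-05) and SNHG3 by -1.28 (adjusted p = 2.05e-05). SNHG15 differed by -1.16 (adjusted p = 0.000205), SNHG26 by -1.14 (adjusted p = 0.000534) and SNHG12 by -1.03 (adjusted p = 4.52e-06). SNHG29, the most abundant host of NCI-H460, differed by -0.99 (adjusted p = 1.22e-05), SNHG14 by -0.86 (adjusted p = 0.00314) and SNHG7 by -0.67 (adjusted p = 0.00244). Of the 13 members not called, SNHG11 stood at 0.50 (adjusted p = 0.052) and SNHG20 at 0.39 (adjusted p = 0.178). The 3 noncoding snoRNA hosts outside the SNHG names, ZFAS1, DANCR and EPB41L4A-AS1, were lower in A549 too. EPB41L4A-AS1 averaged 20.8 TPM in A549 and 106.5 in NCI-H460 and differed by -2.38 (adjusted p = 7.42e-07). Rescaling the libraries to a common median ratio moved the median of all genes by -0.22, kept the 11 calls and added SNHG1 and SNHG16 as lower, where 26.3% of genes were then lower and 27.5% higher. In the rescaled fit 15 of 29 protein-coding snoRNA hosts were lower and 2 higher, with a median of -0.52. Of 18 translation genes with a 5′ terminal pyrimidine tract 10 were lower and 1 higher, with a median of -0.53. Of 21 NMD factors 5 were lower and 5 higher. A lower level in A549 was thus not particular to noncoding hosts. With a threshold of 5 TPM on the mean, SNHG26 was no longer tested and SNHG11 was called higher. Any 2 lines differ in much besides the hosts, and what goes with these differences cannot be told apart here.

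Candidate 42 ASO3 in NCI-H460 was the comparison of an ASO with the control that called most members, 8 of the 24 tested higher and 2 lower than under the control ASO, where 13.2% of 13774 tested genes rose and 32.8% fell. The median log2 fold change was 0.33 over the members and -0.20 over all genes. Both ASO3 libraries were above both controls for 17 members and below both for 4, where 25.7% and 49.1% of genes were. The genes that rose were SNHG9, SNHG7, SNHG11, SNHG25, SNHG15, SNHG12, SNHG30 and SNHG17, and those that fell were SNHG4 and SNHG14. The share of summed TPM held by the 29 members was 0.558 ± 0.026% with ASO3 (SD, n = 2) against 0.509 ± 0.010% in the controls. The sums themselves were 1173905 and 995817 with ASO3 and 974926 and 966019 in the controls. The values are used as deposited, and the part of the unequal sums in the rises was not tested.

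**Figure D2:**
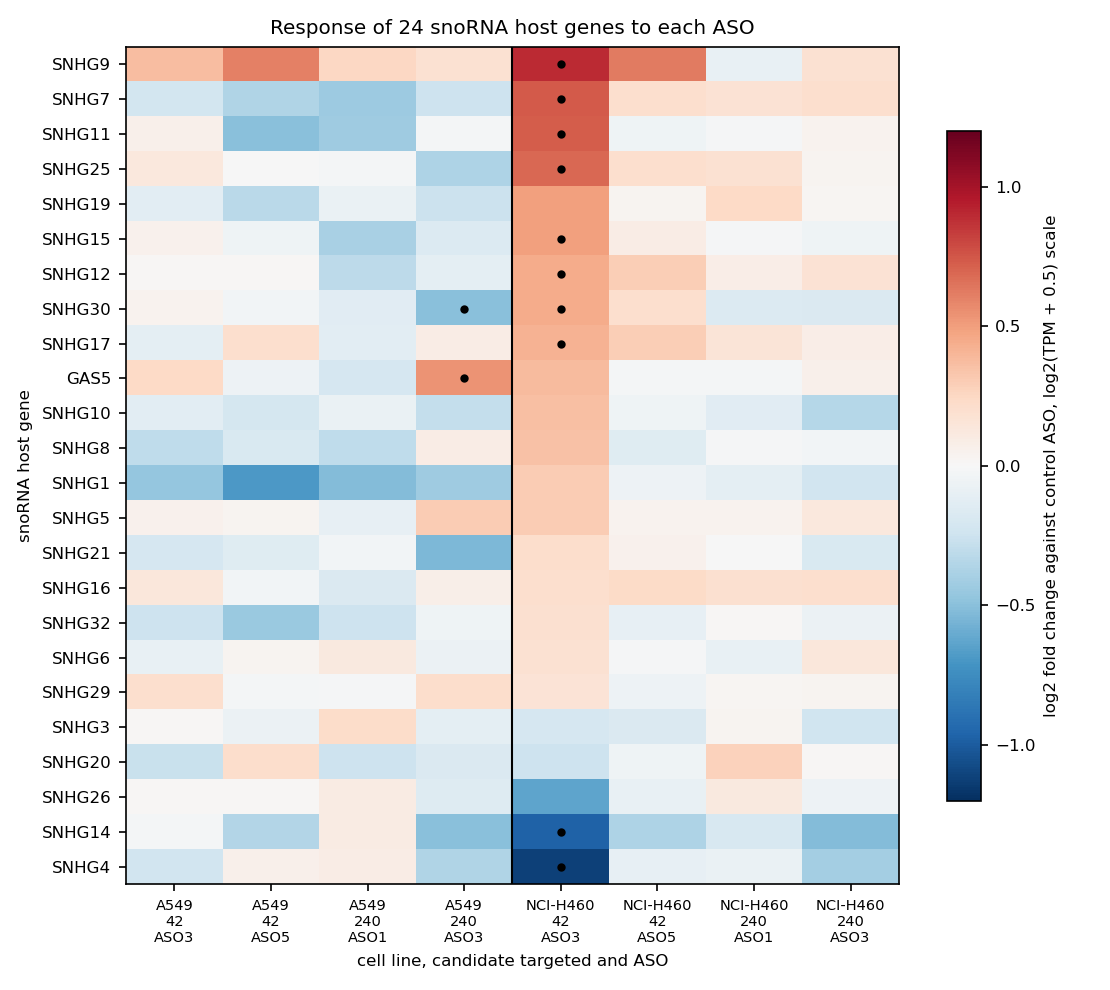
Log2 fold change against the control ASO for 24 host genes (rows) in the 4 ASO groups of each line (columns), on the log2(TPM + 0.5) scale, with a dot where the adjusted p was under 0.05. The NCI-H460 candidate 42 ASO3 column holds 10 dots, A549 candidate 240 ASO3 holds 2, and the other 6 columns hold none; the 4 columns of a line share its control libraries.

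SNHG7, the host of SNORA17A and SNORA17B at chr9:136721366-136728184 (hg38), gave the smallest adjusted p among the genes that rose. In NCI-H460, SNHG7 measured 141 and 142 TPM under the control ASO, 265 and 211 with candidate 42 ASO3, 167 and 159 with candidate 42 ASO5, 152 and 168 with candidate 240 ASO1 and 148 and 179.8 with candidate 240 ASO3. Both ASO3 libraries were above all 8 other libraries of the line, and the controls differed from each other by little. The change was a log2 fold change of 0.74 (SE 0.13, adjusted p = 0.00252). In A549, SNHG7 measured 97.9, 64.8 and 111 TPM under the control ASO, 77.6, 74.1 and 77.4 with candidate 42 ASO3, 71.3, 70.1 and 66.4 with candidate 42 ASO5, 67.7, 64.2 and 65.2 with candidate 240 ASO1 and 91.2, 69.8 and 65.2 with candidate 240 ASO3. In A549 the controls of SNHG7 were spread and the fold change with ASO3 was -0.22 (adjusted p = 0.473).

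SNHG9 and SNHG25 are the shortest members, with spans of 551 and 507 bp. SNHG9 carries SNORA78. In NCI-H460, SNHG9 measured 23.8 and 29.3 TPM under the control ASO, 44.6 and 55.5 with candidate 42 ASO3, 43.1 and 39.0 with candidate 42 ASO5, 22.4 and 27.5 with candidate 240 ASO1 and 20.4 and 44.4 with candidate 240 ASO3. The change with ASO3 was a log2 fold change of 0.90 (SE 0.30, adjusted p = 0.0358), and the ASO5 libraries were above the controls too, at 0.62 (adjusted p = 0.362). In A549, SNHG9 measured 33.5, 27.0 and 35.6 TPM under the control ASO, 42.6, 41.8 and 39.6 with candidate 42 ASO3, 61.3, 34.4 and 54.9 with candidate 42 ASO5, 42.3, 34.2 and 37.5 with candidate 240 ASO1 and 53.8, 31.9 and 27.3 with candidate 240 ASO3. In A549 all 3 ASO3 libraries of SNHG9 were above the controls without passing the test, at 0.37 (adjusted p = 0.381). SNHG25 carries SNORD104. In NCI-H460, SNHG25 measured 27.2 and 32.4 TPM under the control ASO, 42.9 and 54.1 with candidate 42 ASO3, 32.4 and 36.1 with candidate 42 ASO5, 32.5 and 35.0 with candidate 240 ASO1 and 24.7 and 37.3 with candidate 240 ASO3. Its change with ASO3 was a log2 fold change of 0.69 (SE 0.19, adjusted p = 0.0178). In A549, SNHG25 measured 27.8, 26.5 and 16.5 TPM under the control ASO, 26.8, 25.3 and 23.4 with candidate 42 ASO3, 29.4, 23.5 and 17.6 with candidate 42 ASO5, 23.9, 22.8 and 21.2 with candidate 240 ASO1 and 28.7, 14.2 and 13.7 with candidate 240 ASO3. The A549 groups of SNHG25 overlapped.

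SNHG11 carries SNORA71E and SNORA60. In NCI-H460, SNHG11 measured 10.1 and 10.3 TPM under the control ASO, 20.1 and 14.6 with candidate 42 ASO3, 9.26 and 10.5 with candidate 42 ASO5, 9.56 and 10.7 with candidate 240 ASO1 and 8.66 and 12.8 with candidate 240 ASO3. Both ASO3 libraries were the highest of the line, a log2 fold change of 0.72 (SE 0.20, adjusted p = 0.0173). In A549, SNHG11 measured 15.3, 11.6 and 17.8 TPM under the control ASO, 16.8, 14.6 and 14.8 with candidate 42 ASO3, 11.2, 10.9 and 8.79 with candidate 42 ASO5, 12.2, 9.91 and 10.5 with candidate 240 ASO1 and 19.7, 11.9 and 12.7 with candidate 240 ASO3. SNHG11 in A549 was lower than the controls in all 3 libraries with candidate 42 ASO5, at -0.50 (adjusted p = 0.189). SNHG12 carries SNORD99 and 3 H/ACA snoRNAs. In NCI-H460, SNHG12 measured 24.9 and 26.9 TPM under the control ASO, 35.8 and 34.7 with candidate 42 ASO3, 31.2 and 32.6 with candidate 42 ASO5, 25.2 and 29.9 with candidate 240 ASO1 and 26.1 and 32.6 with candidate 240 ASO3. Its change with ASO3 was a log2 fold change of 0.44 (SE 0.13, adjusted p = 0.0213). In A549, SNHG12 measured 13.1, 10.7 and 13.6 TPM under the control ASO, 11.6, 14.5 and 11.6 with candidate 42 ASO3, 12.4, 14.0 and 11.4 with candidate 42 ASO5, 10.5, 10.5 and 8.77 with candidate 240 ASO1 and 10.9, 13.0 and 10.4 with candidate 240 ASO3. The 2 ASO5 libraries of NCI-H460 were above the controls too, at 0.30 (adjusted p = 0.318).

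SNHG15 carries SNORA9. In NCI-H460, SNHG15 measured 60.5 and 56.7 TPM under the control ASO, 102 and 66.7 with candidate 42 ASO3, 64.3 and 60.1 with candidate 42 ASO5, 54.9 and 61.5 with candidate 240 ASO1 and 54.7 and 58.1 with candidate 240 ASO3. Replicate 1 of ASO3 was far above replicate 2, and the change was a log2 fold change of 0.49 (SE 0.17, adjusted p = 0.0425). In A549, SNHG15 measured 32.2, 21.3 and 25.6 TPM under the control ASO, 30.1, 25.9 and 24.9 with candidate 42 ASO3, 27.9, 25.6 and 22.1 with candidate 42 ASO5, 24.9, 18.4 and 16.9 with candidate 240 ASO1 and 33.1, 19.7 and 19.0 with candidate 240 ASO3. SNHG17 carries the SNORA71 snoRNAs. In NCI-H460, SNHG17 measured 113 and 119 TPM under the control ASO, 183 and 129.5 with candidate 42 ASO3, 145 and 138 with candidate 42 ASO5, 127 and 130.4 with candidate 240 ASO1 and 115.5 and 129.6 with candidate 240 ASO3. Replicate 1 with ASO3 was the higher library there too, and the change was a log2 fold change of 0.41 (SE 0.15, adjusted p = 0.0462). In A549, SNHG17 measured 125, 95.4 and 112 TPM under the control ASO, 115, 95.0 and 95.4 with candidate 42 ASO3, 143, 125 and 114 with candidate 42 ASO5, 121, 84.7 and 99.6 with candidate 240 ASO1 and 148, 102 and 105 with candidate 240 ASO3. SNHG30 carries SNORD7. In NCI-H460, SNHG30 measured 11.3 and 12.9 TPM under the control ASO, 18.8 and 14.7 with candidate 42 ASO3, 14.8 and 13.1 with candidate 42 ASO5, 10.6 and 10.9 with candidate 240 ASO1 and 11.1 and 10.3 with candidate 240 ASO3. Its change with ASO3 was a log2 fold change of 0.44 (SE 0.14, adjusted p = 0.0312). In A549, SNHG30 measured 16.5, 12.8 and 17.3 TPM under the control ASO, 16.1, 14.8 and 16.7 with candidate 42 ASO3, 15.7, 14.1 and 15.4 with candidate 42 ASO5, 13.4, 12.7 and 16.1 with candidate 240 ASO1 and 13.6, 9.71 and 9.28 with candidate 240 ASO3. In A549 SNHG30 overlapped the controls under candidate 42 ASO3 and was lower with candidate 240 ASO3.

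SNHG14 and SNHG4 went the other way in NCI-H460. SNHG14, at chr15:24978583-25420336 (hg38) in the imprinted Prader-Willi region, is a transcript of 441754 bp that carries the SNORD115 and SNORD116 clusters and runs antisense to UBE3A. It overlaps the protein-coding gene SNRPN on the same strand, so reads could be divided between them. In NCI-H460, SNHG14 measured 46.5 and 48.2 TPM under the control ASO, 20.4 and 28.0 with candidate 42 ASO3, 34.1 and 39.3 with candidate 42 ASO5, 42.1 and 40.7 with candidate 240 ASO1 and 34.9 and 30.8 with candidate 240 ASO3. Both ASO3 libraries were below all other libraries of the line, a log2 fold change of -0.97 (SE 0.15, adjusted p = 0.00127). In A549, SNHG14 measured 21.6, 28.8 and 27.8 TPM under the control ASO, 21.4, 30.9 and 24.6 with candidate 42 ASO3, 16.8, 22.1 and 22.1 with candidate 42 ASO5, 24.2, 27.0 and 32.3 with candidate 240 ASO1 and 12.1, 22.8 and 21.8 with candidate 240 ASO3. In A549 the ASO3 libraries of SNHG14 overlapped the controls. SNHG4, at chr5:139274102-139284899, overlaps the protein-coding gene MATR3 on the same strand, so reads could be divided between them. In NCI-H460, SNHG4 measured 48.5 and 59.3 TPM under the control ASO, 18.2 and 32.7 with candidate 42 ASO3, 40.8 and 61.6 with candidate 42 ASO5, 45.3 and 56.9 with candidate 240 ASO1 and 36.9 and 44.2 with candidate 240 ASO3. Its change with ASO3 was a log2 fold change of -1.12 (SE 0.28, adjusted p = 0.0111). In A549, SNHG4 measured 17.3, 19.6 and 17.5 TPM under the control ASO, 12.3, 19.2 and 15.2 with candidate 42 ASO3, 16.1, 21.7 and 19.4 with candidate 42 ASO5, 18.6, 20.3 and 19.0 with candidate 240 ASO1 and 10.8, 18.8 and 13.3 with candidate 240 ASO3. SNHG26, the host of SNORD93, was below the controls in both ASO3 libraries of NCI-H460 without passing the test, at -0.63 (adjusted p = 0.0928).

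**Figure D3:**
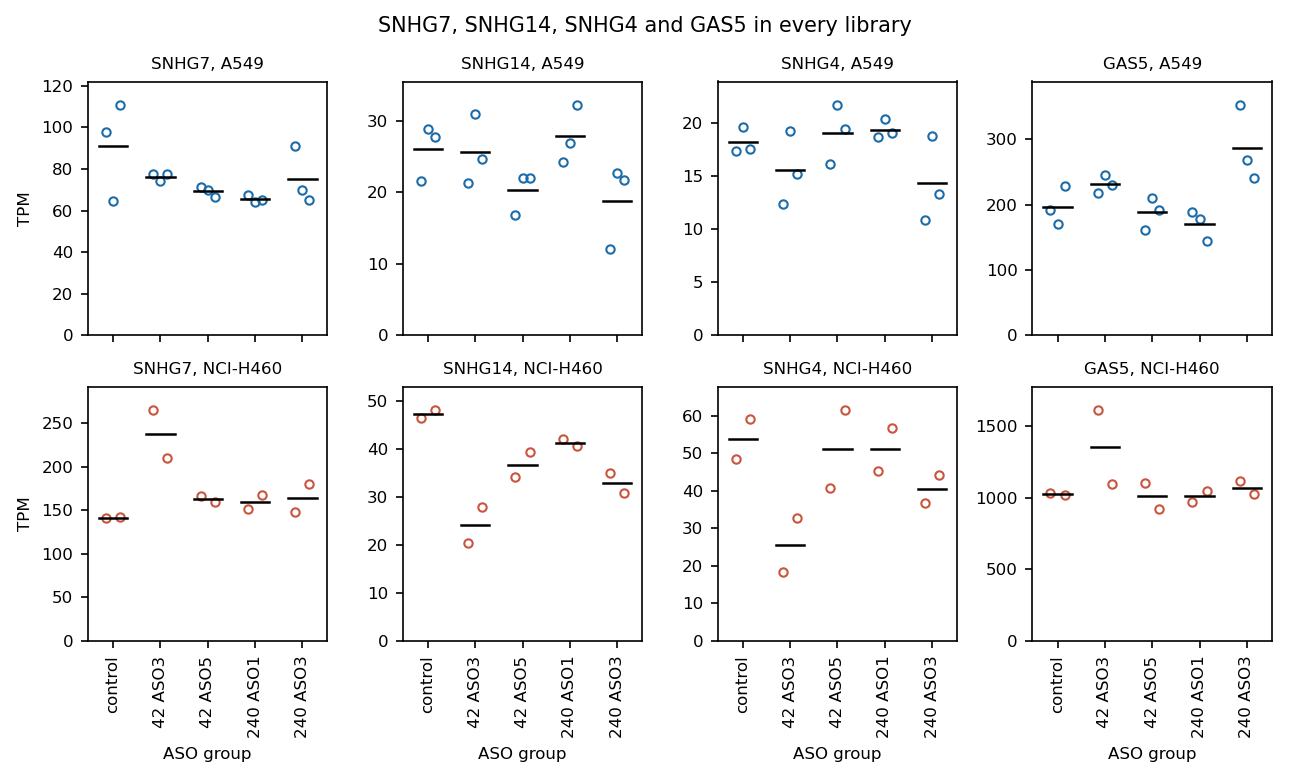
SNHG7, SNHG14, SNHG4 and GAS5 in every library of A549 (upper row, n = 3 per group) and NCI-H460 (lower row, n = 2), in TPM from 0, with 1 circle per library in the order of replicate numbers and a bar at each group mean. In NCI-H460 both candidate 42 ASO3 circles of SNHG7 lie above and those of SNHG14 below every other library, and in A549 all 3 candidate 240 ASO3 circles of GAS5 lie above the controls.

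How firm these calls were differed between genes. Of the fits below, only rescaling is given with its share of all genes. NCI-H460 candidate 42 ASO3 replicate 1, which stood farthest apart, was the more extreme library for SNHG7, SNHG11, SNHG12, SNHG15, SNHG17, SNHG30, SNHG14 and SNHG4, and replicate 2 for SNHG9 and SNHG25. Without replicate 1 of ASO3, 3 members were called, SNHG7, SNHG25 and SNHG14, with SNHG4 at -0.70 (adjusted p = 0.0696). Without replicate 2 of ASO3, 14 were called. Leaving out replicate 1 or replicate 2 of the controls left 3 calls each. Without a filter on low values 2 calls were left, SNHG7 and SNHG14. SNHG9 was called in 0 of the 4 fits that leave out 1 library. SNHG17 was called in 5 of 11 alternatives, and its call was lost with the replicate number as a block (adjusted p = 0.0546) and with the compared groups alone (adjusted p = 0.133) as well. SNHG7 and SNHG14 were called in all 11 alternatives run for them, with fold changes of 0.57 to 0.96 and of -1.19 to -0.75. Rescaling to a common median ratio moved the median of all genes by 0.21 and gave 16 higher and 2 lower members, the 10 genes above among them, where 23.7% of genes were then higher and 22.9% lower. The members' median lay 0.53 above that of all genes before rescaling.

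Response to candidate 42 ASO3 in NCI-H460 went with gene length over the whole table, and the hosts are short genes. Among the other tested genes the median log2 fold change was 0.22 for spans up to 10 kb, -0.22 from 10 to 100 kb and -0.70 above 100 kb. The share called higher was 27.0%, 10.8% and 1.66% in these classes, and the share called lower was 8.44%, 34.6% and 63.8%. The median span of the tested hosts was 6731 bp. Of the 15 hosts up to 10 kb, 7 rose and 0 fell, with a median of 0.44. Of the 8 hosts from 10 to 100 kb, SNHG17 rose and SNHG4 fell, with a median of 0.23. SNHG14, the only tested host above 100 kb, fell by 0.97, within the middle 50% of genes of that length (-1.09 to -0.32). The part of gene length in the hosts' response was not tested.

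**Figure D4:**
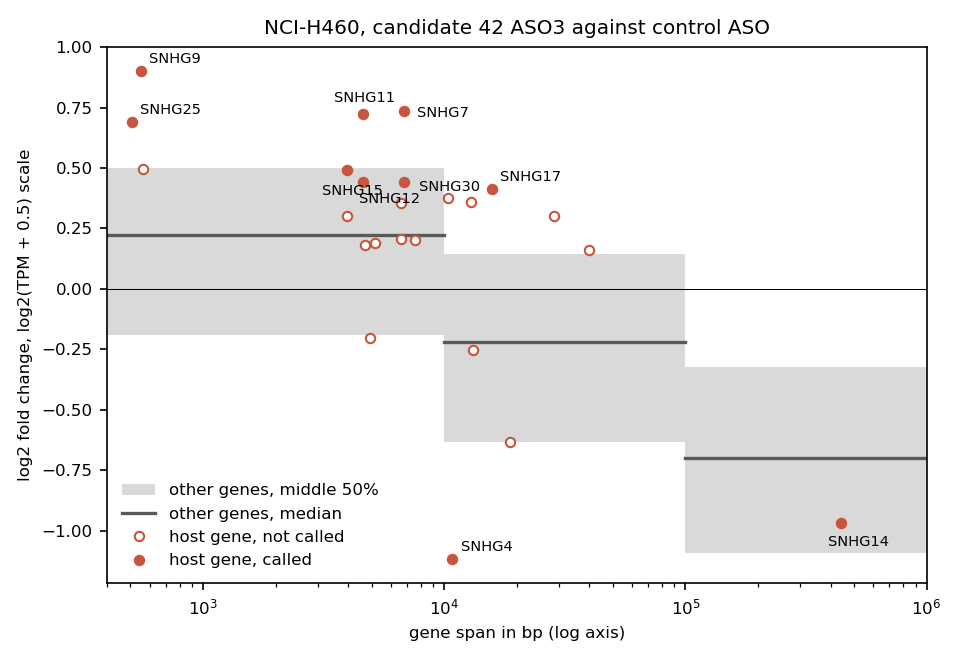
Log2 fold change with candidate 42 ASO3 in NCI-H460 (log2(TPM + 0.5) scale) against gene span in bp (log axis), with filled circles for the 10 called hosts and open circles for the 14 others. Grey bands give the middle 50% and grey lines the median of all other tested genes with spans up to 10 kb, 10 to 100 kb and over 100 kb; among the called hosts SNHG7, SNHG9, SNHG11, SNHG17 and SNHG25 lie above the band of their class and SNHG4 below its own.

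Both ASOs against candidate 42 were compared within NCI-H460 to ask whether the hosts responded alike to them. Relative to ASO3, ASO5 left 3 of the 24 members lower and 2 higher, where 5.62% of genes were lower and 27.7% higher. The lower ones were SNHG11 at -0.77 (adjusted p = 0.0178), SNHG7 at -0.53 (adjusted p = 0.0148) and SNHG8 at -0.50 (adjusted p = 0.0265). SNHG4 at 1.02 (adjusted p = 0.0218) and SNHG14 at 0.60 (adjusted p = 0.0142) were higher. After rescaling, 11 members were lower and 0 higher, where 14.2% and 15.7% of genes were, so the calls of SNHG4 and SNHG14 rest on the deposited scaling. Without replicate 1 of ASO3 0 members were called and without replicate 2 of ASO3 13 were. Leaving out replicate 1 of ASO5 ended the calls of SNHG11, SNHG7 and SNHG8, and leaving out replicate 2 of ASO5 ended all 5. Against the control ASO itself, ASO5 gave 0 called members of 24, where 0.508% of genes were called (limma), with 2 members at an unadjusted p under 0.05, where 15.2% of genes were. In A549 the same difference between ASOs gave 0 calls, where 10.7% of genes were called, with 2 members at an unadjusted p under 0.05, where 24.2% of genes were. The leukocyte marker CD14 was lower with ASO5 than with ASO3 in both lines, at -1.08 in NCI-H460 (adjusted p = 0.00595) and -0.87 in A549 (adjusted p = 0.0203), the other 4 leukocyte markers averaged under 1 TPM, and its part in the result was not tested. With the replicate number as a block, which this pair of A549 groups allows, SNHG11 was lower (-0.57, adjusted p = 0.021) and SNHG17 higher (0.32, adjusted p = 0.0169).

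Responses to candidate 42 ASO3 in the 2 lines were compared in a fit to all 25 libraries. The response, A549 minus NCI-H460, differed for 2 of 24 members, where 15.5% of 14769 genes were higher and 4.22% lower. SNHG7 had a difference of -0.96 (SE 0.24, adjusted p = 0.0138) and SNHG14 a difference of 0.94 (SE 0.32, adjusted p = 0.0453). Without NCI-H460 candidate 42 ASO3 replicate 1 SNHG7 stood at -0.79 (adjusted p = 0.12) and SNHG14 at 0.72 (adjusted p = 0.254), and without NCI-H460 control replicate 2 they stood at -0.96 (adjusted p = 0.0526) and 0.92 (adjusted p = 0.124). SNHG7 was called in 13 of 15 alternatives and SNHG14 in 7 of 15, after rescaling not among them. SNHG4 at 0.89 (adjusted p = 0.0746) and SNHG1 at -0.76 (adjusted p = 0.111) did not pass. The responses of the other 3 ASOs differed between lines for 0 of 24 members, where 0.0339%, 0% and 1.21% of genes did (candidate 42 ASO5, candidate 240 ASO1 and candidate 240 ASO3, limma). At an unadjusted p under 0.05 these were 1, 1 and 0 members, where 6.55%, 2.78% and 11.1% of genes were.

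GAS5, at chr1:173858559-173868882 (hg38) and the host of 10 box C/D snoRNAs, was the member that rose with a candidate 240 ASO. In A549, GAS5 measured 191, 171 and 229 TPM under the control ASO, 218, 246 and 229.8 with candidate 42 ASO3, 162, 209.7 and 193 with candidate 42 ASO5, 189, 178 and 145 with candidate 240 ASO1 and 353, 269 and 241 with candidate 240 ASO3. All 3 libraries with candidate 240 ASO3 were above every control and above every library with candidate 240 ASO1. Against the control ASO the change was a log2 fold change of 0.54 (SE 0.16, adjusted p = 0.0368). SNHG30 was the other member called, lower at -0.50 (adjusted p = 0.0453) with overlapping libraries, where 6% of 14740 genes rose and 7.82% fell. GAS5 was called in 6 of 13 alternatives and SNHG30 in 6 of 13, and 0 members were called after rescaling. Leaving out control replicate 3 or 4 or ASO3 replicate 3 or 4 took the GAS5 call away, and leaving out control replicate 3 or 5 or ASO3 replicate 4 or 5 took that of SNHG30. Without replicate 3 of candidate 240 ASO3, which stood apart and held the highest GAS5 value, GAS5 stood at 0.38 (adjusted p = 0.114). 3 members were then called, all lower. Of the 5 epithelial markers KRT19 rose by 0.76 (adjusted p = 0.00382) while KRT18 and KRT8 fell, and their part in the result was not tested. With the replicate number as a block, which the libraries of these groups bear out, 5 members were called, GAS5 higher and SNHG30, SNHG14, SNHG21 and SNHG4 lower. The share of all genes called in this fit, and without replicate 3 of ASO3, is not given here.

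The difference of GAS5 between the 2 ASOs against candidate 240 was called in every alternative run. Relative to ASO1, ASO3 left GAS5 higher by 0.74 (SE 0.16, adjusted p = 0.00589), the only member of 24 called, where 7.25% of genes were higher and 9.48% lower. Over the 13 alternatives it had a range of 0.58 to 0.86, the lower value being that without replicate 3 of ASO3. All ASO3 libraries lay above all ASO1 libraries for 4 members, GAS5, SNHG5, SNHG16 and SNHG32, and below them for 2, SNHG21 and SNHG14. SNHG5, the host of SNORD50A and SNORD50B, stood at 0.41 (adjusted p = 0.0982). SNHG21 stood at -0.50 (adjusted p = 0.0621) and SNHG14 at -0.59 (adjusted p = 0.0903). How many of all genes had libraries in such an order is not given here. With the replicate block 6 members were called, GAS5 and SNHG5 higher and SNHG14, SNHG21, SNHG30 and SNHG4 lower, and the share of all genes in that fit is not given here. In NCI-H460, GAS5 measured 1033 and 1021 TPM under the control ASO, 1615 and 1099 with candidate 42 ASO3, 1107 and 926 with candidate 42 ASO5, 973 and 1048 with candidate 240 ASO1 and 1115 and 1029 with candidate 240 ASO3. In NCI-H460 candidate 240 ASO3 left 1 library of GAS5 above both controls and 1 between them, at 0.06 (adjusted p = 0.863). The difference of that response between lines was 0.48 (adjusted p = 0.512), so it was not shown to differ. Candidate 42 ASO3 replicate 1, at 1615 TPM, was the highest GAS5 library of NCI-H460, and replicate 2 lay near the controls.

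In the main limma fits, the abundant hosts SNHG29, SNHG5, SNHG6, SNHG19 and SNHG16 were called in no comparison with a control ASO. After rescaling, limma called all but SNHG6 higher in NCI-H460 with candidate 42 ASO3. SNHG29 then stood at 0.39 (adjusted p = 0.0479), SNHG5 at 0.53 (adjusted p = 0.042), SNHG19 at 0.72 (adjusted p = 0.0455) and SNHG16 at 0.43 (adjusted p = 0.0471). The shares of all genes called after rescaling are given above. The authors' deposited table of NCI-H460 candidate 42 ASO3 gives all 5 as higher, with log2 fold changes of 0.23, 0.39, 0.25, 0.57 and 0.26 and q-values of 0.0413, 0.0439, 0.0490, 0.0164 and 0.0365. SNHG29, at chr17:16438767-16478678 (hg38) and the host of SNORD49A, SNORD49B and SNORD65, measured 629, 552 and 609 TPM in the A549 controls, 694, 644 and 722 with candidate 42 ASO3, 625, 569.8 and 560.5 with candidate 42 ASO5, 676, 555 and 548.6 with candidate 240 ASO1 and 902, 613 and 593 with candidate 240 ASO3. In NCI-H460, SNHG29 measured 1164 and 1203 TPM under the control ASO, 1434 and 1219 with candidate 42 ASO3, 1194 and 1076 with candidate 42 ASO5, 1114 and 1295 with candidate 240 ASO1 and 1208 and 1212 with candidate 240 ASO3. Replicate 3 of candidate 240 ASO3 was the high library of A549 and replicate 1 of candidate 42 ASO3 that of NCI-H460. In A549, SNHG5 measured 746, 644 and 689 TPM under the control ASO, 684, 730.1 and 739 with candidate 42 ASO3, 692, 762 and 675 with candidate 42 ASO5, 692, 639 and 609.6 with candidate 240 ASO1 and 1189, 739 and 715 with candidate 240 ASO3. In NCI-H460, SNHG5 measured 775 and 744 TPM under the control ASO, 1087 and 806 with candidate 42 ASO3, 854 and 714 with candidate 42 ASO5, 725 and 847 with candidate 240 ASO1 and 901 and 759.9 with candidate 240 ASO3. SNHG5 in A549 candidate 240 ASO3 replicate 3, at 1189 TPM, was the highest value of the gene.

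SNHG6 is the host of SNORD87. In A549, SNHG6 measured 281, 207 and 223 TPM under the control ASO, 231, 214 and 217 with candidate 42 ASO3, 258, 224 and 240.3 with candidate 42 ASO5, 303, 238 and 228 with candidate 240 ASO1 and 315, 186 and 192 with candidate 240 ASO3. In NCI-H460, SNHG6 measured 264 and 312 TPM under the control ASO, 332 and 320.2 with candidate 42 ASO3, 291 and 277 with candidate 42 ASO5, 225 and 323 with candidate 240 ASO1 and 293 and 341 with candidate 240 ASO3. The SNHG6 groups overlapped their controls in A549. SNHG19, a gene of 562 bp, carries SNORD60. In A549, SNHG19 measured 234, 176 and 208 TPM under the control ASO, 186, 179.5 and 197 with candidate 42 ASO3, 157, 169.9 and 163 with candidate 42 ASO5, 203, 178 and 199 with candidate 240 ASO1 and 255, 146 and 135 with candidate 240 ASO3. In NCI-H460, SNHG19 measured 199 and 224 TPM under the control ASO, 307 and 288 with candidate 42 ASO3, 210.2 and 223 with candidate 42 ASO5, 201 and 309 with candidate 240 ASO1 and 163 and 281 with candidate 240 ASO3. In NCI-H460 the 2 libraries with candidate 240 ASO3 lay on both sides of the controls. SNHG16 is the host of SNORD1A, SNORD1B and SNORD1C. In A549, SNHG16 measured 88.0, 83.9 and 96.4 TPM under the control ASO, 98.1, 103 and 94.8 with candidate 42 ASO3, 86.0, 93.0 and 82.9 with candidate 42 ASO5, 86.7, 87.3 and 65.5 with candidate 240 ASO1 and 101, 92.5 and 88.5 with candidate 240 ASO3. In NCI-H460, SNHG16 measured 126 and 95.3 TPM under the control ASO, 126 and 127 with candidate 42 ASO3, 135 and 123 with candidate 42 ASO5, 133 and 118 with candidate 240 ASO1 and 139 and 114 with candidate 240 ASO3. The 2 NCI-H460 controls of SNHG16 lay far apart, and control replicate 2 was the lowest library of the line.

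A549 control replicate 5 was the highest A549 library for SNHG1, SNHG7, SNHG30 and SNHG32, and each comparison with the A549 controls holds it. SNHG1, the host of SNORD22 and SNORD25 to SNORD31, is the clearest case. In A549, SNHG1 measured 61.9, 52.9 and 124 TPM under the control ASO, 49.3, 65.3 and 48.1 with candidate 42 ASO3, 41.1, 49.3 and 46.7 with candidate 42 ASO5, 59.9, 50.4 and 45.4 with candidate 240 ASO1 and 60.5, 52.9 and 51.9 with candidate 240 ASO3. Replicate 5 of the controls was far above the others, and SNHG1 was lower than all controls only with candidate 42 ASO5, at -0.69 (adjusted p = 0.146). In NCI-H460, SNHG1 measured 95.2 and 101 TPM under the control ASO, 141 and 104 with candidate 42 ASO3, 100.5 and 88.0 with candidate 42 ASO5, 88.9 and 91.5 with candidate 240 ASO1 and 82.1 and 84.6 with candidate 240 ASO3. SNHG32 was the member nearest to a call with that ASO. In A549, SNHG32 measured 73.0, 62.3 and 83.9 TPM under the control ASO, 64.5, 59.1 and 59.3 with candidate 42 ASO3, 46.5, 61.3 and 52.8 with candidate 42 ASO5, 63.4, 60.1 and 59.7 with candidate 240 ASO1 and 75.1, 65.6 and 69.4 with candidate 240 ASO3. All 3 ASO5 libraries of SNHG32 were below every control, at -0.44 (adjusted p = 0.0581), and the gene was called with the replicate number as a block (-0.44, adjusted p = 0.0306), a pairing that these groups do not bear out. In NCI-H460, SNHG32 measured 302 and 306 TPM under the control ASO, 405 and 296 with candidate 42 ASO3, 300.5 and 269 with candidate 42 ASO5, 293 and 322 with candidate 240 ASO1 and 269 and 312 with candidate 240 ASO3. SNHG8, the host of SNORA24, was lower in A549 throughout. In A549, SNHG8 measured 84.3, 61.7 and 99.8 TPM under the control ASO, 76.1, 58.3 and 62.4 with candidate 42 ASO3, 78.8, 70.0 and 64.3 with candidate 42 ASO5, 84.5, 56.0 and 57.6 with candidate 240 ASO1 and 122, 70.1 and 73.2 with candidate 240 ASO3. In NCI-H460, SNHG8 measured 309 and 308 TPM under the control ASO, 452 and 344 with candidate 42 ASO3, 286 and 271 with candidate 42 ASO5, 274 and 343 with candidate 240 ASO1 and 295 and 307 with candidate 240 ASO3. SNHG3, the U17 host, overlaps RCC1 on the same strand. In A549, SNHG3 measured 35.4, 27.6 and 36.2 TPM under the control ASO, 38.0, 40.1 and 23.8 with candidate 42 ASO3, 27.0, 33.8 and 33.2 with candidate 42 ASO5, 43.5, 43.2 and 30.1 with candidate 240 ASO1 and 33.2, 28.9 and 28.5 with candidate 240 ASO3. In NCI-H460, SNHG3 measured 75.5 and 86.2 TPM under the control ASO, 61.0 and 80.3 with candidate 42 ASO3, 69.2 and 74.0 with candidate 42 ASO5, 75.8 and 89.3 with candidate 240 ASO1 and 66.8 and 70.1 with candidate 240 ASO3. No comparison of SNHG3 with a control ASO was called in the main limma fits. The authors' deposited table of NCI-H460 candidate 42 ASO3 gives SNHG3 as lower, at -0.12 (q = 0.0453).

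Counts of called members were 0 in 6 of the 8 comparisons with the control ASO (limma). In A549 these were candidate 42 ASO3, where 10.1% of genes were called, candidate 42 ASO5, where 3.82% were, and candidate 240 ASO1, where 0% were. At an unadjusted p under 0.05 they held 0, 5 and 3 members, where 23.8%, 16.4% and 1.81% of genes were. In NCI-H460 they were candidate 42 ASO5, given above, candidate 240 ASO1, where 0% of genes were called, and candidate 240 ASO3, where 5.66% were, with 2, 0 and 1 members at an unadjusted p under 0.05, where 15.2%, 3.58% and 23.9% of genes were. The 1 member in the last was SNHG14, whose 34.9 and 30.8 TPM lay below both controls, at -0.52 (adjusted p = 0.0731). Candidate 240 ASO3 minus ASO1 in NCI-H460 gave 0 called members as well, where 2.92% of genes were called, and 0 at an unadjusted p under 0.05, where 16.1% of genes were. In A549 candidate 42 ASO3 the members' median was -0.01 against 0.02 over all genes, with 12 members above 0 and 12 below. The remaining members not given by library, SNHG10, SNHG20, SNHG21 and SNHG26, ranged from 2.41 to 15.9 TPM in A549 and from 3.96 to 23.0 in NCI-H460. SNHG21, the host of SCARNA15, came nearest to a call among them, lower with candidate 240 ASO3 in A549 at -0.54 (adjusted p = 0.0538).

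Genes of the pathways that handle the hosts were read beside them, first the NMD machinery. Counts in every list below stand beside the shares of all genes. With candidate 42 ASO3 in NCI-H460, 13.2% rose and 32.8% fell, and the shares after rescaling are given above. In A549, 10.1% were called in either direction with candidate 42 ASO3. With candidate 240 ASO3 in A549, 6% rose and 7.82% fell. With candidate 42 ASO3 in NCI-H460, 2 of 21 NMD factors rose and 9 fell, with a median of -0.14 against -0.20 over all genes. After rescaling 7 were higher and 6 lower and the median was 0.07, so the list has no direction that holds under both scalings. SMG6, the endonuclease that cuts NMD targets, averaged 3.68 TPM against 7.78 in the controls and fell by 0.98 (adjusted p = 0.000822). UPF2, a core bridging factor, fell by 0.93 (adjusted p = 0.00488), and XRN1, the 5′ to 3′ exonuclease that clears the cut RNA, fell by 0.97 (adjusted p = 0.0122). In A549 SMG6 averaged 4.84 TPM with the same ASO against 20.0 in the controls and fell by 2.01 (adjusted p = 8.31e-05), in a list where 1 factor rose and 3 fell, with a median of 0.04. SMG8 was the factor that rose, by 0.68 (adjusted p = 0.00102), and NBAS fell by 0.71 (adjusted p = 0.00351). With ASO5 against the same candidate, SMG6 averaged 16.0 TPM in A549 and 8.08 in NCI-H460. That was higher than with ASO3 by 1.70 (adjusted p = 0.000331) and 1.04 (adjusted p = 0.00129, limma). Of 14 other transcripts known to be sensitive to NMD, 4 rose and 2 fell in NCI-H460 with candidate 42 ASO3, with a median of 0.10, and after rescaling 7 were higher and 0 lower. UPP1 rose by 0.65 (adjusted p = 0.0144), NAT9 by 0.51 (adjusted p = 0.0124) and DDIT3 by 0.50 (adjusted p = 0.0356). In A549 with that ASO 0 rose and 1, MAP3K14, fell by 0.60 (adjusted p = 0.00912).

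Other snoRNA hosts were compared in the same NCI-H460 group, where 13.2% of all genes tested rose and 32.8% fell. Of the 3 further noncoding hosts EPB41L4A-AS1 rose by 0.49 (adjusted p = 0.0284) and 0 fell, with a median of 0.45, and after rescaling 3 were higher. Of 29 protein-coding hosts 5 rose and 1 fell, with a median of 0.19, and after rescaling 13 were higher and 1 lower. SNRPB, a core splicing protein gene, rose by 0.64 (adjusted p = 0.00314), CHD8 by 0.61 (adjusted p = 0.00804) and PPAN by 0.59 (adjusted p = 0.00419). Of 19 genes for snoRNP proteins and their assembly factors 3 rose and 5 fell, with a median of -0.21, and after rescaling 8 were higher and 3 lower with a median of 0.02. SHQ1, an H/ACA assembly chaperone, fell by 0.79 (adjusted p = 0.00164), NOLC1, a snoRNP chaperone, fell by 0.63 (adjusted p = 0.00435), and PIH1D1, part of the R2TP assembly complex, rose by 0.55 (adjusted p = 0.0105). In A549 with candidate 42 ASO3, 0 of the 3, 0 of the 29 and 0 of the 19 were called (limma).

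Translation genes with a 5′ terminal oligopyrimidine start, a feature background knowledge gives to GAS5 as well, gave 2 higher and 3 lower of 18 in NCI-H460 with candidate 42 ASO3, with a median of 0.05, and 6 higher and 3 lower after rescaling. EIF4B, a translation initiation factor, averaged 69.7 TPM against 264.5 in the controls and fell by 1.92 (adjusted p = 2.43e-05). In A549 EIF4B fell by 1.64 (adjusted p = 3.32e-05) and was the 1 called gene of the list. With ASO5 against the same candidate, EIF4B averaged 263.9 TPM in NCI-H460 and 227 in A549. That was higher than with ASO3 by 1.92 (adjusted p = 2.6e-05) and 1.66 (adjusted p = 3.0e-05, limma). In NCI-H460 with ASO3, FAU, a ribosomal protein fusion gene, rose by 0.56 (adjusted p = 0.0239). NAP1L1, a histone chaperone, fell there by 0.57 (adjusted p = 0.00182). Of 16 genes of ribosome biogenesis and growth 3 rose and 5 fell, with a median of -0.14, and after rescaling 5 were higher and 4 lower with a median of 0.08. Those that fell include the RNA polymerase I subunit genes POLR1B, lower by 1.13 (adjusted p = 0.00101), and POLR1A, lower by 0.90 (adjusted p = 0.000757). In A549 the 1 called gene of that list was MYC, lower by 0.58 (adjusted p = 0.0439), which was not called after rescaling. With candidate 240 ASO3 in A549, where GAS5 rose, 0 of the 21 NMD factors, 0 of the 19 snoRNP genes, 0 of the 18 translation genes and 0 of the 16 biogenesis genes were called (limma), while MAP3K14 and TBL2 of the NMD-sensitive list fell by 0.65 (adjusted p = 0.00396) and 0.58 (adjusted p = 0.00594).

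In the authors' deposited table of NCI-H460 candidate 42 ASO3 against control, 25 members are listed and 19 had a q-value under 0.05, 15 higher and 4 lower. Of the 18632 listed genes 9192 (49.3%) did, 4045 of them higher and the rest lower. The 4 lower were SNHG14, SNHG4, SNHG26 and SNHG3. In the authors' deposited table SNHG7 has a log2 fold change of 0.82 (q = 0.0149), SNHG9 of 0.98 (q = 0.0136) and SNHG14 of -0.90 (q = 0.0135). The authors' deposited table gives SNHG17 and SNHG30, called above, q-values of 0.066 and 0.0509. In the authors' deposited table of NCI-H460 candidate 240 ASO3, SNHG14 is the 1 member under 0.05, lower, where 6.91% of listed genes are. In that of A549 candidate 42 ASO3 it is SNHG28, as given above, where 11.3% are. The 5 other deposited comparisons hold 0 members under 0.05. Among these, A549 candidate 240 ASO3 has 11.6% of listed genes under 0.05 and A549 candidate 42 ASO5 has 5.56%. The rest hold 0 genes of any kind under 0.05, so no member could pass there. GAS5 in A549 candidate 240 ASO3 has a log2 fold change of 0.56 (q = 0.148) in the authors' deposited table. The authors' means for NCI-H460 are on another scale than the TPM table, so they are not set beside it.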

How the data were processed

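Expression was read in 25 libraries of total RNA. Per the labels' protocols, RNA was isolated on columns and libraries were made with a NEBNext Ultra RNA kit. Per the submitters' processing notes, kallisto and sleuth 0.30 were used with hg38. Neither the gene annotation nor the strand setting of the counting is given in the sources used here. The authors deposited 1 table of expression signal in TPM per gene name, whose library sums differ from each other, so the values are TPM on a rescaled signal axis, and they are used as deposited. The authors also deposited log2 fold changes with q-values and mean values for each ASO against control.

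Members and lists were chosen with earlier results of these data known, and nothing here is independent support for them. Within each line, genes with a mean of 1 TPM or more were tested with limma 3.58.1 (R 4.3.3) on log2(TPM + 0.5) with a mean-variance trend. All 5 groups of a line share 1 estimate of the spread, and the comparisons between lines use all 25 libraries. P-values were adjusted by Benjamini-Hochberg over all genes tested, with calls at an adjusted p under 0.05. Fold changes are on the log2(TPM + 0.5) scale, which understates changes of low genes. The tests were run on simulated data with independent noise for each gene, without an outlying library or a shift of many genes. That run does not cover how calls depend on single libraries or on scaling. Every tested member is reported with its value or within a range. Genes of the lists are named when called, at most the 3 with the largest change per list and comparison.

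Alternatives were no filter and one at 5 TPM, other pseudocounts, rescaling by median-of-ratios size factors, fits of the compared groups alone, the replicate number as a block, and each library left out in turn. Same-numbered libraries deviated together (every correlation of deviations over 0.1) in A549 for candidate 240 ASO1 and ASO3 against control and for both comparisons between ASOs of a candidate, and the correlations fell short for candidate 42 ASO3 and ASO5 against control (lowest 0.0897 and 0.0213). NCI-H460 has only 2 pairs. Libraries of a group correlated at 0.958 to 0.988, and none was a repeat of another. The depth is unknown, so no counting interval is given. Promoters are from RefSeq's GRCh38.p14 tables, and snoRNA sequences and 3 member positions from GENCODE v29. The other positions are the authors'.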

Additional observations from a re-analysis of the deposited data

Results flagged for a closer look

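A test of the difference between lines called 2 of 24 members in their response to candidate 42 ASO3 (limma across all 25 libraries, A549 minus NCI-H460). Over all 14769 genes tested, 15.5% were called higher and 4.22% lower. Among the other genes spanning over 100 kb, the length class of SNHG14, 22.9% were called higher, with a median difference of 0.48. For SNHG14 the difference was 0.942 on the log2 scale (adjusted p = 0.0453): the gene fell by 0.97 in NCI-H460 and stood at -0.03 in A549. For SNHG7 it was -0.957 (adjusted p = 0.0138), with a rise of 0.74 in NCI-H460 and -0.22 in A549, where control replicate 5 was the highest library of the line. Rescaling kept SNHG7 and ended the call of SNHG14. The differences of these responses rest on 2 NCI-H460 libraries per group.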

How the results depend on the processing

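Of 31 calls of a member in a comparison, 343 values under alternatives gave 260 on the same side of the threshold, 83 no longer past it and 0 of opposite sign. With no filter on low values, the number of called members was 1 for A549 candidate 42 ASO3, 0 for A549 candidate 240 ASO3, 2 for NCI-H460 candidate 42 ASO3, 0 for NCI-H460 candidate 42 ASO5 minus ASO3 and 1 for the difference between lines in the response to candidate 42 ASO3. This setting tests more genes. After median-of-ratios rescaling the counts were 0 for A549 candidate 240 ASO3, 18 for NCI-H460 candidate 42 ASO3, 11 for NCI-H460 candidate 42 ASO5 minus ASO3 and 4 for that difference between lines. Fits of the compared groups alone gave 0 for A549 candidate 240 ASO3 and 1 each for A549 and NCI-H460 candidate 42 ASO5 minus ASO3 and NCI-H460 candidate 240 ASO3. With the replicate number as a block, the counts were 5 for A549 candidate 240 ASO3, 6 for A549 candidate 240 ASO3 minus ASO1 and 2 for A549 candidate 42 ASO5 minus ASO3. In A549 candidate 42 ASO5 against control, where the numbers do not pair the libraries, the block gave 1, and it left the other counts within 1.5 times the main one. The cause of these changes was not tested. For most of these fits, and for those below that leave out 1 library, the share of all genes called is not given. Their counts thus do not show whether members moved more than other genes. Leaving out 1 library gave 3 to 14 members for NCI-H460 candidate 42 ASO3, 0 to 13 for NCI-H460 candidate 42 ASO5 minus ASO3, 0 to 3 for A549 candidate 240 ASO3, 1 to 3 for A549 candidate 240 ASO3 minus ASO1, 0 to 2 for A549 candidate 42 ASO5, 11 to 13 for the lines under the control ASO and 0 to 5 for the difference in response to candidate 42 ASO3. In A549 candidate 42 ASO5 the 2 were SNHG7 and SNHG32, without control replicate 4. The unknown read depth limits what can be said of members near 1 TPM, and 2 libraries per group limit NCI-H460.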
